A study of Mus musculus with 2 samples.

Results

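Sfrp2 and C1qtnf3 fibroblasts are collagen-producing stromal cells recovered from healing defects of the mouse skull vault. They were chosen by measured values: at least 200 detected genes, at most 20% mitochondrial UMIs (molecular tags, so that 1 UMI stands for 1 RNA molecule read), at least 5 UMIs of Sfrp2 and C1qtnf3 together, at least 20 of Col3a1, at most 2 of Mmp13, under 20 of Ptgds, and none of the leukocyte gene Ptprc or the endothelial gene Cdh5. This selected 819 of 23333 barcodes, 14 of 10806 in the CGG-Cit library and 805 of 12527 in the CGG library, so that nearly all values below describe CGG cells. The cells came from defects of 2 mm in the parietal bones of wild-type C57BL/6 mice, 14 days after implantation of a CGG-Cit hydrogel or of a CGG hydrogel. What CGG and Cit stand for is not stated by the submitters; 1 library was made per hydrogel, and the labels do not give the age, the sex or how many mice went into each library. The hydrogel and the library therefore cannot be told apart, no difference was tested, and every interval below is a 95% interval for counting error only.

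Stromal fibroblasts secrete the fibrillar collagens, proteoglycans and elastic fibre proteins of connective tissue, and in a bone defect they share the space with osteoblast-lineage cells that deposit mineralizing matrix. Sfrp2 encodes a secreted frizzled-related protein that binds Wnt ligands and modulates Wnt signalling. C1qtnf3 encodes a secreted protein of the C1q and tumour necrosis factor family. Wisp2 encodes a matricellular protein of the CCN family, and Egfl6 a secreted protein with epidermal growth factor repeats. In mouse connective tissues, fibroblasts with Pi16, Dpp4 and Cd34 are known as adventitial or universal fibroblasts.

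In the mouse genome build GRCm38 (mm10), Sfrp2 lies on chromosome 3 at 83766321 to 83774316 (plus strand), C1qtnf3 on chromosome 15 at 10952332 to 10980150 (plus strand), Wisp2 on chromosome 2 at 163820861 to 163833146 (plus strand) and Egfl6 on chromosome X at 166523007 to 166585720 (minus strand). RefSeq promoters of GRCm38.p6 were matched for 3 of these 4 genes. The 250 bases before each annotated start are shown because the levels of these genes varied apart among the cells described below. Capitals mark matches on either strand to 4 short motifs, which do not overlap here. The TATA box was searched as TATAAA and the CCAAT box by its own letters. The GC box was searched as GGGCGG, and the AP-1 motif by the letters TGANTCA.
Sfrp2, chr3:83766071-83766320, plus strand: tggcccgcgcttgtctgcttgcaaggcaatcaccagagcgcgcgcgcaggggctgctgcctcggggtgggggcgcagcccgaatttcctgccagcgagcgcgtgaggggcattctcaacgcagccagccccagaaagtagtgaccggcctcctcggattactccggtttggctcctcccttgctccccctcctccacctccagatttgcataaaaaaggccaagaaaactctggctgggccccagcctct
C1qtnf3, chr15:10952082-10952331, plus strand: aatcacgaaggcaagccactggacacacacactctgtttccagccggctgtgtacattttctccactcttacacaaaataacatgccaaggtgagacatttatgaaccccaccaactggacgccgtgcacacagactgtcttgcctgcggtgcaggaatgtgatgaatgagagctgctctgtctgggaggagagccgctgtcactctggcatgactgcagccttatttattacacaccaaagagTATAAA
Egfl6, chrX:166585717-166585966, minus strand: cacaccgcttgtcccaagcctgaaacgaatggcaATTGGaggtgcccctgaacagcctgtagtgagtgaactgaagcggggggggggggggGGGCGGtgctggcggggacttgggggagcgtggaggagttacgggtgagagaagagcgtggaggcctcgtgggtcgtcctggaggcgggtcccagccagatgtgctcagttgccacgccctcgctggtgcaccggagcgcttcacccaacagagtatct
The C1qtnf3 promoter held 1 TATAAA, at bases 6 to 1 before the annotated start, a motif found in 12.4% of all 32851 promoter windows of this length. The Egfl6 promoter held 1 CCAAT box on the opposite strand (33.8% of windows) and 1 GC box (32.7% of windows), and the Sfrp2 window held no match. TGANTCA matched none of these 3 windows and 6.7% of all windows. Guanine and cytosine made up 63.6% of the Sfrp2 window, 49.2% of the C1qtnf3 window and 64.8% of the Egfl6 window. These matches describe letters in the windows and say nothing of binding.

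The libraries held 106173570 UMIs (CGG-Cit) and 92517884 UMIs (CGG), and 34 barcodes occurred in both, 1 of them a CGG fibroblast and none a CGG-Cit fibroblast. Fibroblasts were deeply read, with a median of 17509.5 UMIs per cell in CGG-Cit and 13394 in CGG. Among the 805 CGG fibroblasts, 620 had at least 5000 UMIs and 185 fewer, with a median of 2542. The shallow cells carried more RNA of other cells. Their 10 macrophage and monocyte markers summed to 5495 CPM (UMIs per 1000000 UMIs of the summed cells), against 575 CPM in the deep cells, and their 10 neutrophil markers to 19044 CPM, against 1691 CPM. Erythroid markers summed to 31491 CPM in shallow cells and 7949 CPM in deep cells. Whether free RNA or mixed droplets account for this was not tested, and only some results below are also given without the shallow cells.

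**Figure D1:**
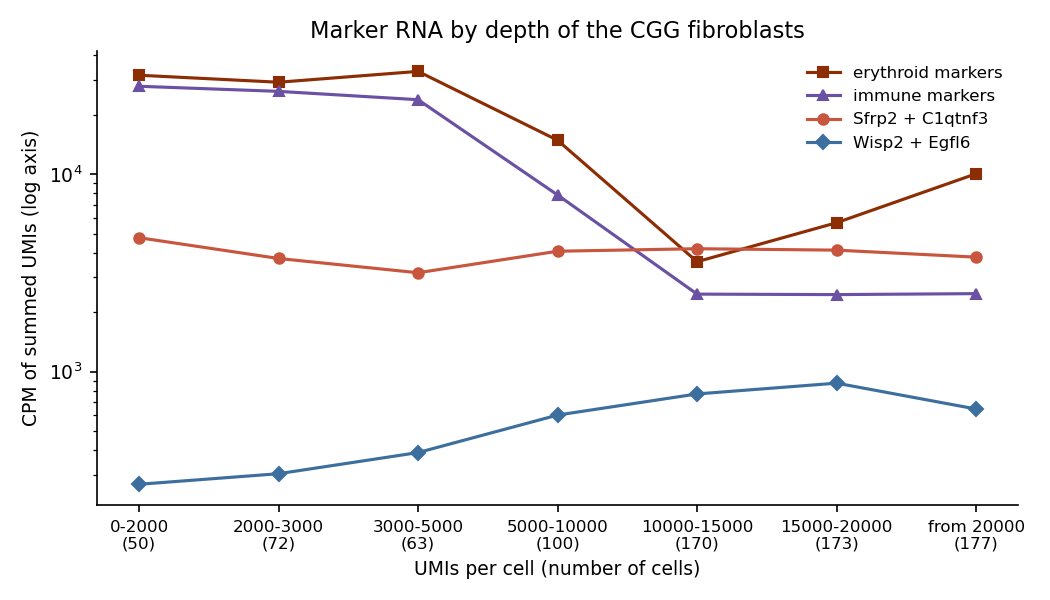
Summed CPM on a log axis of erythroid markers, immune markers, Sfrp2 plus C1qtnf3, and Wisp2 plus Egfl6 in the 805 CGG fibroblasts, by the number of UMIs per cell, with the number of cells under each bin. Immune marker RNA stood at 27857 CPM in the 50 cells below 2000 UMIs and at 2482 CPM in the 177 cells from 20000 UMIs, and Wisp2 plus Egfl6 at 269 and 647 CPM. The level of Sfrp2 plus C1qtnf3 (3167 to 4765 CPM) is held up in shallow cells by the gate on these genes.

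Fibroblasts were far rarer among CGG-Cit than among CGG barcodes. Of the barcodes that passed the gene and mitochondrial filters, they made up 0.133% with CGG-Cit (14 of 10531, 0.0727 to 0.223%, exact Clopper-Pearson interval) and 6.56% with CGG (805 of 12279, 6.12 to 7.01%). The difference was -6.42 percentage points (Newcombe interval -6.88 to -5.99), a 49.3-fold lower share. Counted among barcodes without Ptprc or Cdh5 UMIs, the shares were 0.492% with CGG-Cit and 19.2% with CGG. Within the stromal barcodes that passed all gates but that on Sfrp2 and C1qtnf3, the fibroblasts were 14 of 28 with CGG-Cit (50%, 30.65 to 69.35%) and 805 of 1184 with CGG (68.0%, 65.25 to 70.6%). The gap between the libraries thus lay mostly in the number of Col3a1-rich stromal barcodes, and less in which of them met the gate.

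The gates shaped these counts. Of the CGG barcodes that met every earlier gate, 599 were dropped for a Ptprc UMI, and 317 barcodes that met all other gates had exactly 1. The selected cells had 3226 CPM of Sfrp2, 739 of C1qtnf3, 211 of Egfl6 and 973 of Pi16, against 3010, 765, 208 and 680.5 CPM in those 317 barcodes. Sfrp2 and C1qtnf3 also chose both sets. With 1 UMI of Ptprc and of Cdh5 allowed, the shares were 0.161% with CGG-Cit and 9.61% with CGG. At the Sfrp2 and C1qtnf3 gate, 85 cells just inside (5 or 6 UMIs) and 122 barcodes just outside (3 or 4 UMIs) had median depths of 2541 and 2379 UMIs, and 994 and 586 CPM of Sfrp2.

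Sfrp2 was read in every selected cell, C1qtnf3 in 601 and Wisp2 in 600 of the 805 CGG cells, and Egfl6 in 388. In CGG, Sfrp2 had 3226 CPM (3193 to 3259), with 1 to 446 UMIs per cell and a median of 25. C1qtnf3 had 739 CPM (723 to 755), with up to 184 UMIs and a median of 3. Wisp2 had 502 CPM and Egfl6 211 CPM, with medians of 3 and 0 UMIs per cell. Every CGG fibroblast held an Sfrp2 UMI although the gate also admitted cells with C1qtnf3 alone, 204 held no C1qtnf3, and 316 (39.25%) held all 4 markers. Since Sfrp2 and C1qtnf3 chose the cells, their levels are a description.

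In B lineage barcodes (at least 5 UMIs of Cd79a and Cd79b), a cell type expected to lack these genes, Sfrp2 stood at 268 CPM, C1qtnf3 at 51.5, Wisp2 at 44.6 and Egfl6 at 35.3 CPM in the same library. Fibroblasts and mixed droplets were not taken out of this set, so its levels may include RNA of whole fibroblasts. In CGG, 14 of its 1080 barcodes (1.30%) held all 4 markers, and in CGG-Cit 1 selected fibroblast had 5 Cd79a UMIs and so belonged to it. Thinned to 2000 UMIs per cell, which left out 50 fibroblasts, Sfrp2 was read in 93.6% of fibroblasts and 13.0% of B lineage barcodes. The corresponding shares were 50.6% and 3.23% for C1qtnf3, 47.4% and 4.09% for Wisp2, and 24.8% and 3.76% for Egfl6. Without thinning, Wisp2 was read in 74.5% of fibroblasts (median 13394 UMIs) and 7.87% of B lineage barcodes (median 3250 UMIs), and Egfl6 in 48.2% and 8.06%. All 4 shares lay above those of the B lineage barcodes, but for Sfrp2 and C1qtnf3 the gate made this so. Wisp2 and Egfl6 were not used by the gate, but they were named as markers of these cells with earlier results of these data known. Their higher shares are therefore a description too. For Egfl6 these barcodes may not stand for free RNA alone for a further reason. In CGG-Cit, where fibroblasts were few, Egfl6 was read in 9.59% of B lineage barcodes and Sfrp2 in 0.348%.

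The 14 CGG-Cit cells passed the same gate, so their Sfrp2 and C1qtnf3 levels too are a description. These cells held 5 to 143 Sfrp2 UMIs with a median of 36, 0 to 98 C1qtnf3 UMIs with a median of 10, 0 to 18 Wisp2 UMIs with a median of 3, and 0 to 25 Egfl6 UMIs with a median of 0. All had Sfrp2, 10 had C1qtnf3, 12 had Wisp2 and 6 had Egfl6. These ranges lay inside those of the CGG cells, which were far more numerous and chosen by the same gate. Summed over cells, Sfrp2 stood at 2781 CPM in CGG-Cit fibroblasts, against 3226 CPM in CGG fibroblasts, and C1qtnf3 at 1078 CPM, against 739 CPM. Single cells weighed on the latter: 1 CGG-Cit cell held 98 C1qtnf3 UMIs and another 79, and the next highest held 36.

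**Figure D2:**
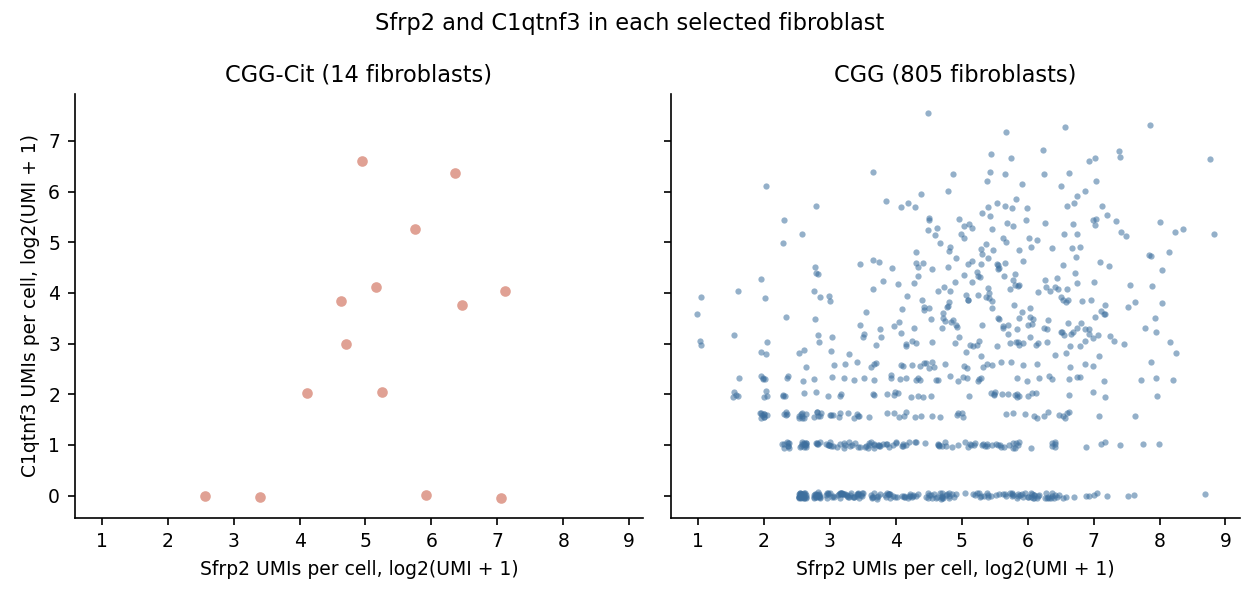
Each point is 1 selected fibroblast, with its Sfrp2 UMIs (horizontal axis) and C1qtnf3 UMIs (vertical axis) as log2(UMI + 1) and a small random offset, for CGG-Cit on the left and CGG on the right. C1qtnf3 ran from 0 to 184 UMIs over the CGG cells, 204 of which lie on the lowest row. The 14 CGG-Cit cells, chosen by the same gate, fall within the CGG cloud.

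Matrix genes were among those of highest level. In CGG, Col1a2 had 21978 CPM, Col3a1 19920 and Col1a1 18405 CPM, and the nuclear RNA Malat1 followed at 18284 CPM. Next came the collagen-binding glycoprotein Sparc at 14292 CPM, the calcification inhibitor Mgp at 9776 CPM and the proteoglycan Dcn at 6577 CPM. Collagen genes took 6.98% of all UMIs of CGG fibroblasts and 7.56% of those of CGG-Cit fibroblasts, against 8.41% in the Mmp13-high stromal cells described below and 1.77% over all other CGG barcodes. Ribosomal protein genes took 15.2% of the UMIs of CGG fibroblasts. The surface antigen Ly6a (4136 CPM), fibronectin Fn1 (3985 CPM) and the follistatin-like Fstl1 (3146 CPM) were also among the 20 genes of highest level.

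Markers of other cell types summed to lower levels than mesenchymal markers. The 10 mesenchymal markers, which include Col1a1, Col1a2, Pdgfra and Prrx1, summed to 50961 CPM in CGG fibroblasts and 4259 CPM in B lineage barcodes, and none was at 0. The 9 osteoblast markers summed to 92.5 CPM in CGG fibroblasts, against 573 CPM in Mmp13-high stromal cells. Endothelial markers summed to 99.5 CPM, mural markers to 187, chondrocyte markers to 63.6 and epithelial markers to 0.605 CPM, with Krt5 and Krt8 at 0. Neutrophil markers reached 2439 CPM and erythroid markers 8964 CPM, both below the 46349 and 68338 CPM over all filtered CGG barcodes. B lineage markers summed to 568 CPM, against 195 CPM in Mmp13-high stromal cells and 688 CPM over all filtered CGG barcodes. Glia and nerve markers summed to 123 CPM, above the 86.9 CPM over all filtered CGG barcodes. These marker levels fit stromal cells. The mesenchymal sum was higher still in Mmp13-high stromal cells of CGG, at 67178 CPM. It was also higher in the other Col3a1-positive stromal cells of CGG described below, at 62960 CPM. The mesenchymal sum thus does not single out fibroblasts among stromal cells, and the gate on Col3a1 favoured collagen-rich cells from the start. In CGG-Cit fibroblasts, 7 of the 9 osteoblast markers were at 0, and the 9 summed to 17 UMIs, or 64.8 CPM (37.7 to 103.7). A count of 0 in these few cells allows up to 11.4 CPM, so the zeros say little on their own.

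The closest neighbour with a named marker was the set of 73 Mmp13-high stromal cells of the CGG library, with at least 5 UMIs of the collagenase gene Mmp13, at least 20 of Col1a1, under 20 of Ptgds and no Ptprc or Cdh5. They were read more deeply, with a median of 17873 UMIs against 13394 in the fibroblasts. The 4 markers Sfrp2, C1qtnf3, Wisp2 and Egfl6 summed to 1147 CPM in Mmp13-high cells. Their sum was 4677 CPM in fibroblasts and 399 CPM in B lineage barcodes. Sfrp2 alone had 728 CPM in Mmp13-high cells, so these markers were not confined to the fibroblasts. Fibroblasts had more RNA of adventitial fibroblast and complement genes, and Mmp13-high cells more RNA of osteoblast and cartilage genes. Of 8219 genes with at least 10 CPM on average over both sets and at least 20 UMIs in all, 405 (4.93%) were at least 2-fold higher and 324 (3.94%) at least 2-fold lower in fibroblasts. The whole counting interval lay past 2-fold for 227 of the higher and 194 of the lower genes. Mmp13 helped to choose both sets and both come from 1 library, so these ratios (with 0.5 UMI added to each summed count) are descriptions.

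**Figure D3:**
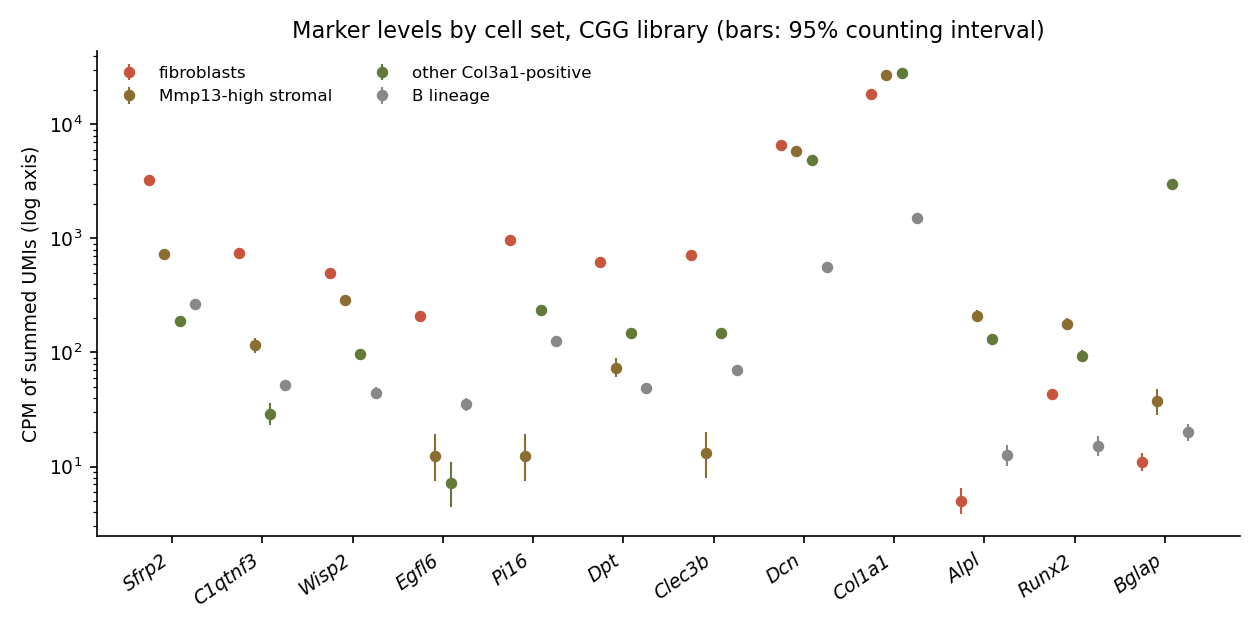
Summed CPM on a log axis of 12 genes in 4 cell sets of the CGG library (805 fibroblasts, 73 Mmp13-high stromal cells, 379 other Col3a1-positive stromal cells and 1080 B lineage barcodes), with bars for the 95% counting interval. Pi16, Dpt and Clec3b were highest in fibroblasts, and Alpl, Runx2 and Bglap were lower in fibroblasts than in both other stromal sets.

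Universal fibroblast genes had the highest median ratio of the 28 gene lists. Of the 10 compared, 8 were at least 2-fold higher in fibroblasts and none was 2-fold lower, with a median log2 ratio of 3.48 against -0.05 over all genes compared. The peptidase inhibitor gene Pi16 had 973 CPM in fibroblasts and 12.4 CPM in Mmp13-high cells, a 76.4-fold difference (50.2 to 130.3). Clec3b, which encodes the plasminogen-binding tetranectin, had 715 and 13.1 CPM, 53.4-fold higher in fibroblasts. Dpp4 (126 CPM in fibroblasts and 5.22 in Mmp13-high cells), Cd34 (535 and 35.9) and Dpt (623 and 73.8) followed the same direction, whereas Pdgfra (174 and 146 CPM) and Col15a1 (22.3 and 35.3 CPM) did not pass 2-fold.

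Elastic fibre and other matrix genes were split. In fibroblasts, 6 of 17 elastic fibre and microfibril genes were at least 2-fold higher, among them Efemp1 (302 CPM in fibroblasts and 22.2 in Mmp13-high cells), Emilin2 (150.5 and 11.1) and Mfap5 (1418 and 287), and the latent TGF-beta binding gene Ltbp1 was lower (62.8 and 236). The tenascin-X gene Tnxb was 77.0-fold higher in fibroblasts (33.8 to 318.2), with 226 and 2.61 CPM. Nov, a CCN family gene, was 33.3-fold higher (22.5 to 54.4). The fibril-associated collagen Col14a1 had 976 CPM in fibroblasts and 154 CPM in Mmp13-high cells. Fibroblasts had less of the basement membrane collagens Col4a1 (52.9 CPM in fibroblasts and 347 in Mmp13-high cells) and Col4a2 (32.1 and 203) and of the matricellular Tnc (59.2 and 368). Of the 6 fibrillar collagens compared, only Col11a1 passed 2-fold, with 243 CPM in fibroblasts and 704 CPM in Mmp13-high cells.

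Several complement and chemokine genes were higher in fibroblasts. Among 14 complement genes, 7 were at least 2-fold higher and 1 was at least 2-fold lower. C3, the central complement component, was 19.5-fold higher in fibroblasts (15.5 to 25.3), with 872 and 44.4 CPM, and C4b was 17.5-fold higher (13.4 to 23.9). Of 20 recruitment chemokines and cytokines, 9 were higher and 3 lower. The eosinophil attractant Ccl11 was 29.7-fold higher (18.0 to 57.9), with 262 CPM in fibroblasts and 8.49 CPM in Mmp13-high cells. Ccl2, which attracts monocytes, had 578 and 64.6 CPM, while the interferon-induced Cxcl10 was lower in fibroblasts, with 298 and 948 CPM.

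Secreted regulators of Wnt and BMP signalling also differed. Of 6 Wnt inhibitors and modulators compared, 3 were at least 2-fold higher in fibroblasts, namely Sfrp1 (137 CPM in fibroblasts and 13.1 in Mmp13-high cells), Sfrp4 (178.5 and 35.3) and the agonist Rspo3 (57.2 and 24.8), and Wif1 was lower (0.778 and 21.5). Of 8 BMP and activin antagonists, 5 were higher and 1 lower, with the activin inhibitor Fst at 102 and 20.9 CPM and the BMP and activin inhibitor Bambi, the lower one, at 19.02 and 44.4 CPM. With no minimum level, which lets in genes of few UMIs, the list's median log2 ratio of 1.05 became -0.21. Pcsk6, which encodes a proprotein convertase, had 585 UMIs in fibroblasts (50.6 CPM) and none in Mmp13-high cells, at least 25.8-fold higher against the 3 UMIs that a count of 0 allows in that set. Osr2, a transcription factor gene, was 45.2-fold higher (18.0 to 256.1), from 1195 UMIs in fibroblasts and 3 in Mmp13-high cells.

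Skeletal genes were lower in fibroblasts. Of 9 osteoblast genes compared, 8 were at least 2-fold lower and none was higher, with a median log2 ratio of -2.50. Alpl, which encodes the alkaline phosphatase of mineralizing cells, had 5.02 CPM in fibroblasts and 210.9 CPM in Mmp13-high cells, 41.8-fold lower (31.7 to 56.6). The osteoblast transcription factor genes Runx2 (43.7 CPM in fibroblasts and 178 in Mmp13-high cells), Sp7 (1.30 and 24.8) and Dlx5 (1.04 and 22.9) were also lower. Bglap2, an osteocalcin gene, was 10.4-fold lower (7.87 to 13.8), but its log2 ratio of -3.38 became -0.25 when 3 UMIs of Sfrp2 and C1qtnf3 sufficed. Reads of Bglap and Bglap2, near-identical copies, may have been split between them.

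Patterning and cartilage genes went the same way. Of 17 cranial mesenchyme transcription factor genes, 9 were at least 2-fold lower in fibroblasts and 1, Twist2, was higher (38.0 CPM in fibroblasts and 13.1 in Mmp13-high cells). Msx1 had 20.8 and 147 CPM, Foxc1 18.4 and 133 CPM, and Alx4 2.59 and 35.9 CPM, whereas Prrx1 (836 and 449) and Twist1 (270 and 289) did not pass 2-fold. Of 6 chondrocyte genes 4 were lower, including Acan (8.91 and 86.2) and Comp (13.6 and 129). Among the genes with the widest gaps were Npnt, an integrin ligand gene, at 31.3-fold lower (22.0 to 46.6), the peptidase gene Mme at 26.8-fold lower (18.6 to 40.3), the deiodinase gene Dio2 at 14.1-fold lower and the BMP family gene Gdf10 at 9.51-fold lower.

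Other functions were close between the sets. None of 22 tricarboxylic acid cycle genes and none of 25 translocon and secretory pathway genes passed 2-fold in either direction, with median log2 ratios of 0.04 and -0.10. Among 16 histone acetyltransferase and deacetylase genes, Hdac7 alone passed it, with 69.7 CPM in fibroblasts and 16.3 CPM in Mmp13-high cells. Of 18 immediate early and dissociation stress genes 1, Dnajb1, was higher (342 and 146 CPM).

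**Figure D4:**
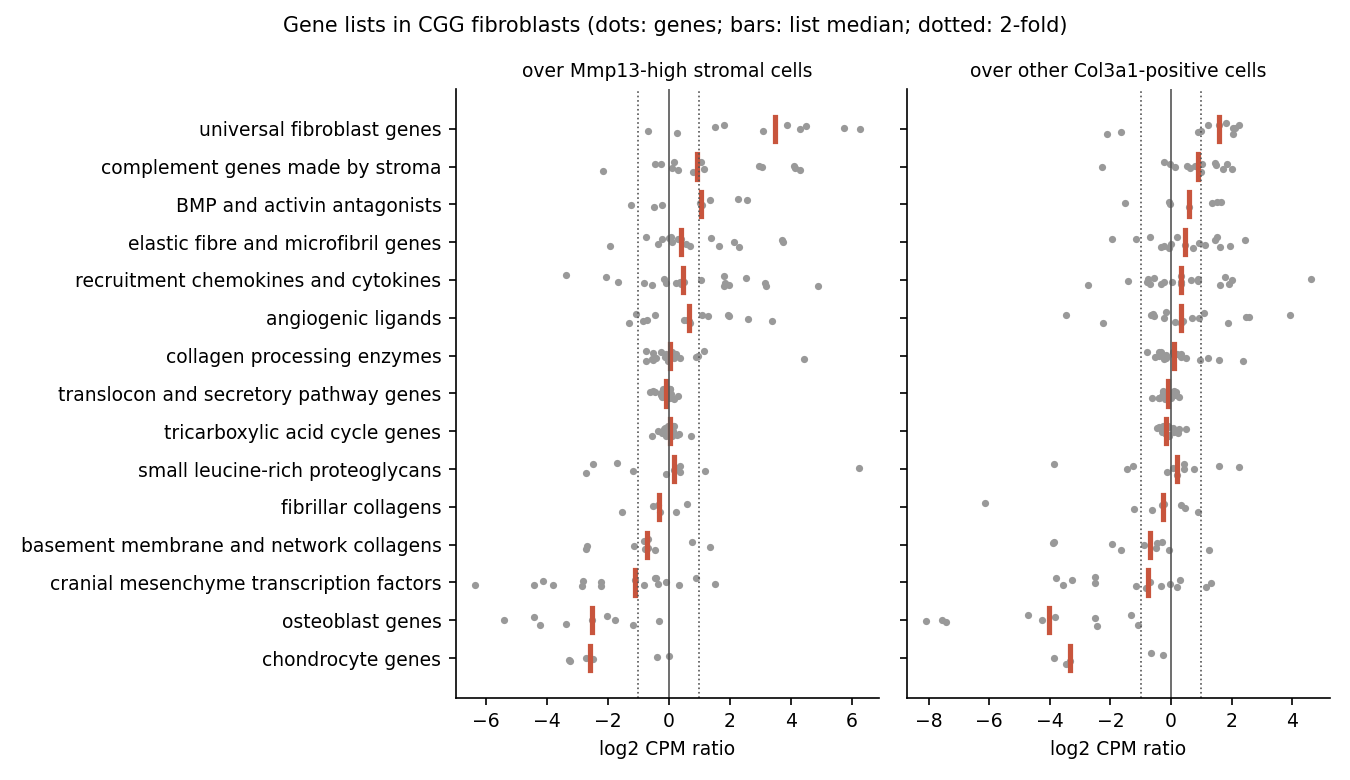
Log2 ratios of summed CPM of CGG fibroblasts over Mmp13-high stromal cells (left) and over other Col3a1-positive stromal cells (right), with 1 dot per gene compared, a bar for the list's median and dotted lines at 2-fold. Universal fibroblast genes had the highest medians (3.48 on the left and 1.58 on the right), and osteoblast and chondrocyte genes the lowest.

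A wider neighbour set, chosen after the data were seen, held the 379 CGG barcodes that met every gate except that on Sfrp2 and C1qtnf3. It was shallower (median 3842 UMIs) and mixed: its 9 osteoblast markers summed to 4764 CPM and its 8 mural markers to 1471 CPM. Of 8480 genes compared, 249 (2.94%) were at least 2-fold higher and 458 (5.40%) at least 2-fold lower in fibroblasts. The marker gene Egfl6 was 28.7-fold higher in fibroblasts (19.2 to 47.6), with 211 CPM against 7.16 CPM, the widest gap among genes higher in fibroblasts, by the bound of its interval nearest to 1. Its log2 ratio of 4.84 became 6.58 among cells with at least 5000 UMIs. The angiopoietin-like Angptl1 was 15.3-fold higher (10.4 to 24.4), the cartilage matrix gene Cilp 11.5-fold (7.67 to 19.1), the calpain family gene Capn6 7.58-fold, and the matrix gene Fbln2 5.48-fold. Wisp2 was 5.19-fold higher (4.62 to 5.88).

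Universal fibroblast genes again leaned to the fibroblasts here, with 7 of 11 higher and 2 lower, but by smaller ratios: Pi16 had 973 CPM in fibroblasts and 237 CPM in the other Col3a1-positive cells. Insulin-like growth factor binding protein genes Igfbp2 (177 and 34.4 CPM), Igfbp3 (1597 and 351) and Igfbp4 (2706 and 965) were at least 2-fold higher in fibroblasts, 3 of the 8 genes of their list, and the ligand gene Igf2 was lower (29.9 and 155). All 10 osteoblast genes compared were lower, led by Bglap at 10.98 CPM in fibroblasts and 3006 CPM in the other cells; its log2 ratio of -8.09 became -1.10 when all barcodes were thinned before the gates. The mural gene Rgs5 was 71.7-fold lower in fibroblasts (61.1 to 85.1), with 13.4 CPM against 964 CPM, and Myh11, a smooth muscle myosin gene, 54.3-fold lower.

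Among the fibroblasts themselves, UMIs per cell varied beyond counting for some genes. Over 3984 genes with a mean of at least 0.5 UMI, the variance over that expected from counting at each cell's depth had a median of 1.35. The 4 highest ratios belonged to globin genes, with 2171 for Hbb-bs, and the neutrophil gene S100a8 had 234. Among the 620 cells with at least 5000 UMIs, the median was 1.31 over 4685 genes, with 2516 for Hbb-bs and 331 for S100a8. Among secreted factors, Mgp had a ratio of 408 (0 to 3633 UMIs per cell, median 54), Ccl2 of 179 (median 0, highest 680), Igfbp3 of 121 (median 6, highest 769) and Cxcl10 of 118 (median 0, highest 336). Ccl2 was concentrated: 40 of the 805 cells held 78.6% of its UMIs.

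The balance between the naming genes went with other matrix genes. The C1qtnf3 share of Sfrp2 plus C1qtnf3 UMIs had a median of 0.110 in CGG; 15 cells had at least 0.8 (C1qtnf3-rich), 256 lay between, and 534 had at most 0.2 (Sfrp2-rich). These are ranges, not cell types, and 107 cells lay within 0.05 of the lower limit and 9 within 0.05 of the upper one. Of 8114 genes compared between the ends, 860 (10.6%) were at least 2-fold higher and 671 (8.27%) at least 2-fold lower in C1qtnf3-rich cells. With 15 cells at that end, the whole counting interval lay past 2-fold for 77 and 87 of them.

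C1qtnf3-rich cells had more RNA of elastin and of several tendon and contractile genes. Eln had 2792 CPM in C1qtnf3-rich cells and 289 CPM in Sfrp2-rich cells, 9.66-fold higher (8.79 to 10.6). It was read in all 15 cells, with 39.2% of its 572 UMIs in 1 of them. Igfbp3 had 5091 and 802 CPM, 6.35-fold higher (5.93 to 6.78), with 54.75% of its 1043 UMIs in 1 of the 15 cells. Of 8 insulin-like growth factor genes and binding proteins 2, Igfbp3 and Igfbp2, were at least 2-fold higher and 1, Igfbp5 (747 and 2348 CPM), was lower. The smooth muscle genes Tagln (356 and 21.6 CPM) and Acta2 (317 and 35.3 CPM) were 16.6-fold and 9.03-fold higher, but 92.3% of the Acta2 UMIs came from 1 cell. Tagln was read in 7 of the 15 cells, with 47.95% of its UMIs in 1 cell. Of 7 tendon and ligament genes 6 were at least 2-fold higher, with Tnmd at 210 and 89.8 CPM and Fmod at 713 and 281 CPM, and of 8 contractile genes 5 were higher. The 256 cells between the limits, which hold none of those 15, had 1107 CPM of Eln, 2956 of Igfbp3, 186 of Tagln and 115 of Acta2, each above the Sfrp2-rich level.

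Sfrp2-rich cells had more RNA of universal fibroblast genes and of several chemokine genes. Of 10 universal fibroblast genes compared, 7 were at least 2-fold lower in C1qtnf3-rich cells. Dpt had 78.1 CPM in C1qtnf3-rich cells and 830 CPM in Sfrp2-rich cells, 10.3-fold lower (6.54 to 18.6). Pi16 had 268 and 1372 CPM, and Dpp4 1 UMI and 1292 UMIs, 23.5-fold lower (6.32 to 1395). Efemp1 was 34.1-fold lower (11.8 to 352.4), from 2 and 3124 UMIs, and the lubricin gene Prg4 26.2-fold lower, from 1 and 1439 UMIs. The dermokine gene Dmkn had none in C1qtnf3-rich cells and 840 in Sfrp2-rich cells, at least 7.65-fold lower by counting error alone. Of 17 recruitment chemokines and cytokines 10 were lower, with Ccl2 at 39.0 and 507 CPM, but Ccl2 did not follow the share: it stood at 744 CPM in the cells between the limits, and its log2 ratio of -3.61 became 2.36 when 1 UMI of Ptprc and of Cdh5 was allowed. Of 14 complement genes 4 were lower, among them C3 (215 and 1051 CPM), and 1, Cd59a, was higher (151 and 23.99 CPM). Cell cycle genes were lower for 13 of 15, from 0 to 5 UMIs each in C1qtnf3-rich cells. Wisp2, which was not used for this split, had 561 CPM in C1qtnf3-rich and 391 CPM in Sfrp2-rich cells, and Egfl6 132 and 197.5 CPM.

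**Figure D5:**
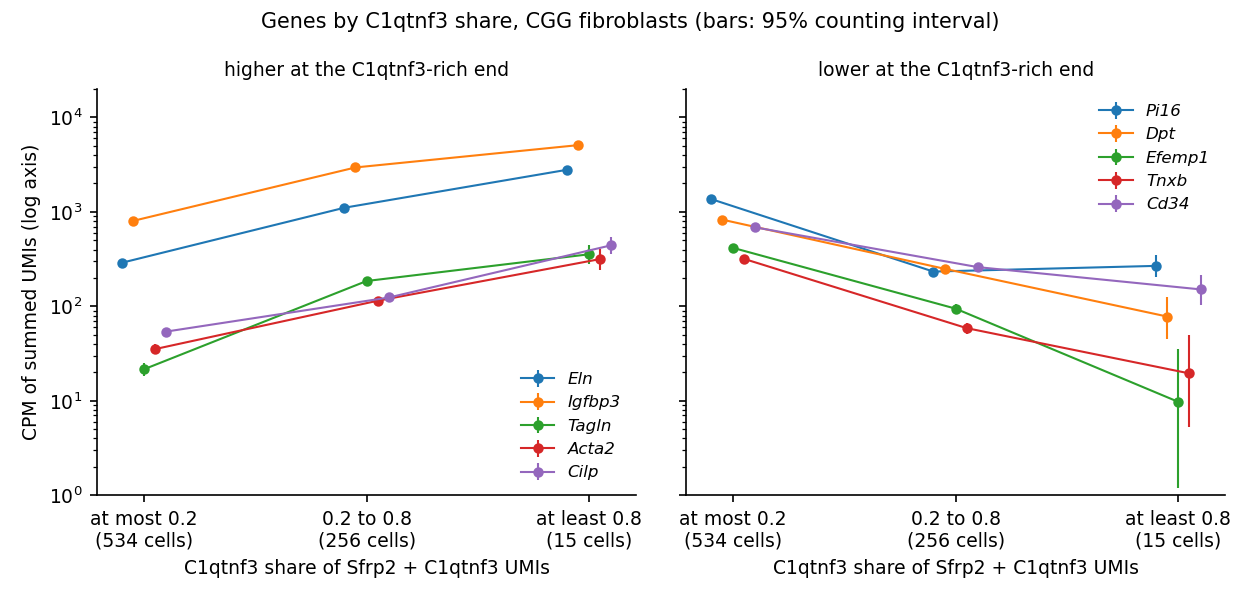
Summed CPM on a log axis of 10 genes in 3 ranges of the C1qtnf3 share of Sfrp2 plus C1qtnf3 UMIs in CGG fibroblasts, with bars for the 95% counting interval. Eln ran through 289, 1107 and 2792 CPM and Dpt through 830, 250 and 78.1 CPM from the lowest to the highest range.

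Pi16 divided the cells more evenly. Among the 620 CGG fibroblasts with at least 5000 UMIs, 272 had at least 3 Pi16 UMIs and 210 had none, at median depths of 16188.5 and 15880.5 UMIs. This split and those that follow were chosen after the data were seen. Of 8160 genes compared, 244 (2.99%) were at least 2-fold higher and 205 (2.51%) at least 2-fold lower in Pi16-positive cells. The sphingomyelinase gene Smpd3 had 309 UMIs in Pi16-positive and none in Pi16-negative cells, at least 80.95-fold higher by counting error alone. Its log2 ratio of 8.93 became 3.04 when 3 UMIs of Sfrp2 and C1qtnf3 sufficed. Krtdap was 58.5-fold higher (28.8 to 173.2), and Pcolce2, an enhancer of procollagen processing, had 114 CPM in Pi16-positive and 2.14 CPM in Pi16-negative cells, 50.4-fold higher (27.0 to 124.6). Tnxb had 440 and 36.9 CPM. Of 9 universal fibroblast genes 7 were higher and 1, Col15a1, was lower (8.61 CPM in Pi16-positive and 32.3 in Pi16-negative cells). The higher ones included Dpp4 (249 and 21.6 CPM) and Clec3b (1434 and 168). Of 14 complement genes 5 were higher, such as the decay-accelerating Cd55 (299 and 40.9), and 1, Cd59a, was lower (19.9 and 74.5).

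Some tendon, collagen and contractile genes were higher in Pi16-negative cells. The semaphorin receptor gene Nrp2 was 10.3-fold lower in Pi16-positive cells (8.07 to 13.4), with 14.9 CPM against 154 CPM. Col11a1 had 64.0 CPM in Pi16-positive and 441.9 CPM in Pi16-negative cells, and Fmod, a collagen-binding proteoglycan gene, 136.5 and 658 CPM. Of 7 fibrillar collagens 2 and of 6 tendon and ligament genes 3 were at least 2-fold lower in Pi16-positive cells, and none of either list was higher. Of 8 contractile genes 4 were lower in Pi16-positive cells, with Tagln at 19.7 and 117 CPM and Acta2 at 17.6 and 94.0 CPM. The 620 deep cells held 79 with at least 3 UMIs of both Pi16 and Egfl6, 193 with Pi16 alone, 167 with Egfl6 alone and 181 with neither.

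Egfl6 marked a range that partly overlapped that of Pi16, with 79 deep cells at 3 or more UMIs of both. The 246 deep cells with at least 3 Egfl6 UMIs, set against the 259 with none, had 343 and 82.6 CPM of Capn6, a 4.15-fold difference (3.71 to 4.66). The network collagen gene Col8a1 had 1812.5 CPM in Egfl6-positive and 681 CPM in Egfl6-negative cells, the receptor tyrosine kinase ligand gene Gas6 843.5 and 318.5 CPM, and the chemokine gene Cxcl14 236 and 58.2 CPM. Pcolce2 was 61.0-fold lower in Egfl6-positive cells, with 8 UMIs against 519 UMIs, Smpd3 32.6-fold lower, and the growth factor gene Bmp3 14.8-fold lower. Krtdap (5.22 and 99.9 CPM) and Dmkn (12.6 and 151.6 CPM), both higher in Pi16-positive cells, were lower in Egfl6-positive cells.

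Smaller groups of deep cells carried other genes. In the 101 cells with at least 3 Cxcl10 UMIs, against 385 with none, Ccl2 had 1981 and 206.5 CPM, the interferon-induced Rsad2 430.0 and 57.5 CPM, and the hyaluronan receptor gene Cd44 609.5 and 103 CPM. These cells were deeper, with a median of 20221 against 15166 UMIs. The 50 cells with at least 3 Acta2 UMIs (median 24318 UMIs), against 446 with none (median 15243.5), had 97.4 and 3.73 CPM of the cell cycle inhibitor gene Cdkn2a, 474 and 24.5 CPM of Tagln, and 86.4 and 1381 CPM of Pi16. The 29 cells with at least 3 UMIs of the glycoprotein hormone gene Gpha2, against 542 with none, had 273 and 11.8 CPM of the cartilage gene Chad, 100.7 and 2.41 CPM of the natriuretic peptide gene Nppc, and 1.80 and 248.5 CPM of Tnxb. Of all 805 CGG fibroblasts, 49 (6.09%, 4.54 to 7.97%) held at least 3 UMIs of the cell cycle genes Mki67 and Top2a together. This raw count went with depth, so it is not a measured share of cycling cells. Deep cells with at least 3 Mki67 UMIs had a median of 32908 UMIs, against 15787 in those with none.

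The 14 CGG-Cit fibroblasts were set against the 805 CGG fibroblasts as summed profiles of 262454 and 11564619 UMIs. Some gene lists lay close to the median log2 ratio of 0.03 over all genes, with translocon genes at 0.10, fibrillar collagens at 0.01 and complement genes at -0.03. Others lay apart: 4 of 6 tendon and ligament genes were at least 2-fold higher in CGG-Cit fibroblasts (median 1.10), among them Tnmd (248 CPM in CGG-Cit and 106 in CGG fibroblasts) and Fmod (800.1 and 381). Chondrocyte genes had a median of 1.498 (2 of 4 higher), contractile genes of 0.59 (2 of 8 higher and 1 lower) and universal fibroblast genes of -0.66 (1 of 11 higher and 2 lower). Of 19 matrix proteases and inhibitors 5 were lower and 1 was higher, with the inhibitor gene Timp1 at 183 and 503 CPM. Of 8038 genes compared, 514 (6.39%) were at least 2-fold higher and 512 (6.37%) at least 2-fold lower in CGG-Cit fibroblasts, but the whole counting interval lay past 2-fold for only 48 and 36 of them. With so few cells, single cells weighed heavily. Igf2, an insulin-like growth factor gene, had 297 CPM in CGG-Cit and 29.9 CPM in CGG fibroblasts, 9.98-fold higher (7.67 to 12.7), with 73.1% of its 78 UMIs in 1 cell, and Chad owed 29 of its 30 UMIs to 1 cell.

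Some differences were spread over more CGG-Cit cells. The interferon-induced chemokine gene Cxcl9 had 861 CPM in CGG-Cit and 226 CPM in CGG fibroblasts, 3.81-fold higher (3.31 to 4.36), and was read in 10 of 14 cells. Igfbp2 had 671 and 177 CPM, 3.80-fold higher (3.23 to 4.42), in 7 cells. The imprinted gene Mest was 4.15-fold higher (2.95 to 5.60) and the collagen gene Col4a2 4.33-fold higher (2.95 to 6.03), each in 8 cells. Cxcl9 and Igfbp2 stood at 6.50 and 0.959 CPM over all other CGG-Cit barcodes.

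Genes lower in CGG-Cit fibroblasts included several at 0. Dmkn, Cxcl2, the ligand gene Wnt2 and Spp1, which encodes osteopontin, had no UMI in the 14 cells. Against the 3 UMIs that a count of 0 allows, they were at least 6.53-fold, 5.98-fold, 5.09-fold and 4.62-fold lower than in CGG fibroblasts. These bounds cover counting error only, not which 14 cells were drawn. Dmkn stood at 149 CPM in Pi16-positive and 10.4 CPM in Pi16-negative deep CGG cells. Of the 14 CGG-Cit cells, 2 had at least 3 Pi16 UMIs. Spp1 stood at 24.9 CPM over all other CGG-Cit barcodes and 794 CPM over all other CGG barcodes, and Cxcl2 at 282 and 784 CPM, so both genes were lower with CGG-Cit outside the fibroblasts too. The heat shock gene Hspa1b had 15.2 CPM in CGG-Cit and 188 CPM in CGG fibroblasts, and 5.96 and 174 CPM over all other barcodes. Gm26870 had 7.62 and 103 CPM in fibroblasts, and 2.95 and 210 CPM over all other barcodes. The globin gene Hba-a1, at 328 and 1907 CPM in fibroblasts, went the other way outside them (25465 and 17159 CPM). What part such RNA has in the difference within fibroblasts was not tested. The hyaluronan synthase gene Has1 had 2 UMIs in CGG-Cit fibroblasts and 1314 UMIs in CGG fibroblasts, 11.9-fold lower (4.12 to 123.2), but its log2 ratio of -3.58 became 0.11 when 1 UMI of Ptprc and of Cdh5 was allowed. Pi16 had 552.5 and 973 CPM, with 138 of its 145 UMIs in 1 CGG-Cit cell, and of 15 cell cycle genes 9 were at least 2-fold lower in CGG-Cit fibroblasts, from 0 to 6 UMIs each.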

How the data were processed

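The deposited files hold raw UMI counts per gene and barcode that the authors made with Cell Ranger (version 3.0 per the submitters' processing notes, 4.0.0 per the file headers) on build mm10; whether the 10x kit was v2 or v3 is not said. Members and gene lists were chosen with earlier results of these data known, and every comparison describes cells selected on measured values. UMIs were summed per cell set and given per 1000000 (CPM); ratios had 0.5 UMI added to each count. Compared genes had at least 10 CPM on average over both sets and 20 UMIs in all, without the gate genes. Intervals are 95% (Clopper-Pearson, Newcombe, Poisson, conditional binomial). With 1 library per group there was no test. Named genes were list members, the 20 of highest level, the 15 most variable, and the 10 (8 within fibroblasts and between hydrogels) farthest from 1 each way by interval bound, with at least 50 CPM and 30 UMIs; genes around Egfl6, Cxcl10, Acta2 and Gpha2, and the comparisons with other Col3a1-positive cells, between hydrogels and by Pi16, were chosen after values were seen. Doublets were kept; Scrublet calls were an alternative. The ratio code was tested on simulated data. Python 3.11.15, numpy 2.4.6, scipy 1.17.1, pandas 2.3.3 and scanpy 1.11.5 were used. The values of 1 complement gene are not reported here.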

Additional observations from a re-analysis of the deposited data

How the results depend on the processing

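The CGG share of 6.56% and the difference of -6.42 points kept their direction throughout. They became 7.55% and -7.40 with at least 3 UMIs of Sfrp2 and C1qtnf3, 5.21% and -5.09 with at least 10, 7.23% and -7.10 with at least 10 Col3a1 UMIs, 5.54% and -5.41 with at least 40, 9.61% and -9.45 with 1 UMI of Ptprc and of Cdh5 allowed, and 5.05% and -4.92 for cells with at least 5000 UMIs, a setting chosen after seeing the data. Thinning all barcodes to 2000 UMIs before the gates left 9 CGG-Cit and 582 CGG fibroblasts and 20 Mmp13-high cells; 638 genes were then higher and 655 lower than in Mmp13-high cells, 67 and 161 against other Col3a1-positive cells, and 836 higher in CGG-Cit than in CGG fibroblasts. With no minimum level the counts were 1395 and 3144 against Mmp13-high cells, 1005 and 3041 against other Col3a1-positive cells, and 5416 and 1380 for CGG-Cit against CGG. Of 1056 values for 88 named genes under alternatives, 3 changed sign: Ccl2 in C1qtnf3-rich cells (2.36) and Has1 in CGG-Cit cells (0.11) with 1 UMI of Ptprc and of Cdh5 allowed, and Chad in CGG-Cit cells (-2.33) after thinning. Of 1008 values for 84 list medians, 122 moved and 65 had the other sign, 1 of them for a median past 2-fold. That BMP and activin antagonist median against Mmp13-high cells was -0.21 with no minimum level. The causes were not tested. Median-of-ratios scaling moved log2 ratios by -0.08 to 0.01. Scrublet's own threshold marked 1 of 12279 CGG barcodes, so a fixed rate was used there. Planned comparisons with Ptgds-rich and Cxcl12-abundant stromal cells were not run, since each held 1 CGG cell. No paired analysis was possible because there was 1 library per group.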
